A study of Rattus norvegicus with 4 samples.

Results

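The complement genes described here were 9 rat genes, of which 4 code for regulators (Cd55, Cd59, Serping1 and Cfi) and 5 for components of the cascade (C3, C4a, C1r, C1s and Cfb). They were followed over 4 arrays of the rat skeletal myoblast line L6. Members were taken by gene symbol, as probe sets listed in the array annotation for that gene alone, and a gene was given as the mean of its probe sets. Of the 9 genes, 6 were found under their own symbol, and Cd59 was found under Cd59b, which the current rat gene table links to it. Cfb and C4a were found only on probe sets listed for 2 genes at once and are described apart from the rest. Thus 7 genes, 4 regulators and 3 components, were measured, out of 14217 genes on the array.

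L6-HGF myoblasts carry human hgf, brought in with the pBabepuro retroviral vector under puromycin selection, and L6-WT myoblasts are the parent line without it, from the Wistar strain. A control line with the empty vector was not described, so that hHGF cannot be told apart from the vector and the selection. Each line was analysed as a monolayer culture and as a myoblast sheet, a dense cell layer that lifts off a thermoreactive culture dish. The study asked whether constitutive hHGF expression changes the gene expression of the myoblasts themselves. Every condition was 1 array of total RNA, so that no spread between cultures was measured. In bulk RNA of this kind, fewer expressing cells and less RNA per cell cannot be told apart.

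Complement is a protease cascade of blood plasma and tissue fluid. In the classical pathway C1r activates C1s, which cleaves C4 and C2, and the alternative pathway runs through factor B (Cfb). Both meet at C3, whose cleavage leads on to opsonisation and to the membrane attack complex. Host cells hold the cascade back with GPI-anchored surface proteins, Cd55 which dissociates the C3 convertases and Cd59 which blocks the membrane attack complex, and with secreted inhibitors, Serping1 (C1 inhibitor) and Cfi (factor I). The liver makes most plasma complement, while muscle cells and fibroblasts also make several of the components.

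Promoter sequence is shown for 3 members whose values are described in most detail. Cd55 is the member that passed 2-fold, and C3 and C1r had their highest and lowest value, respectively, on the array of the L6-HGF sheet. The sequences are from RefSeq on build GRCr8, where a promoter was given for 5 of the 9 members, and run 5′ to 3′ from 250 bases before to 50 bases after the start of the gene. They lie at chr13:44438052-44438351 (minus strand) for Cd55, at chr9:2201290-2201589 (minus strand) for C3 and at chr4:159098763-159099062 (plus strand) for C1r. Capitals mark matches to 1 of 6 motifs searched on both strands.
Cd55: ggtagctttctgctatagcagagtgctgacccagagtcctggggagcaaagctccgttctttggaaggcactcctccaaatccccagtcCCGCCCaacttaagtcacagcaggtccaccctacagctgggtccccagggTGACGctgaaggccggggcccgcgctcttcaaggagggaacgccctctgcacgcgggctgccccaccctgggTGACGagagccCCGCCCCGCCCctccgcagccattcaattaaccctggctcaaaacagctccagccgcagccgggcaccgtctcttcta
C3: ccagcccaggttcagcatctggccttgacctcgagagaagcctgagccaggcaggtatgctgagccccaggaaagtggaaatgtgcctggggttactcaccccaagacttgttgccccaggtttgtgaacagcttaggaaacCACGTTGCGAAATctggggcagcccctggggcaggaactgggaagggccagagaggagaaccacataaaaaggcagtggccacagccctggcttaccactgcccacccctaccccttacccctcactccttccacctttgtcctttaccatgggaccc
C1r: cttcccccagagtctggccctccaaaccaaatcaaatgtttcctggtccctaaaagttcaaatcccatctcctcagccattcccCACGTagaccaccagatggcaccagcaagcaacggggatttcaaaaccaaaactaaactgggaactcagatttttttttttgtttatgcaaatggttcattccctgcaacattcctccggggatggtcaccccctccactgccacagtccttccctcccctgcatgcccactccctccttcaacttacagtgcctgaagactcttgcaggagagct

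The 6 motifs were the GC box GGGCGG, the CRE half-site TGACG, the hypoxia response core ACGTG, the interferon GAS element TTCNNNGAA, the C/EBP motif TTGCNNAAT and the TATA box TATAAA. The Cd55 promoter held 3 GC boxes, at positions -161, -28 and -23, of which the last pair overlapped, and 2 CRE half-sites, at -111 and -39. A GC box was found in 33.1% and a CRE half-site in 21.2% of all promoters in the table. The C3 promoter held an overlapping hypoxia core at -108 and C/EBP motif at -104, and the C1r promoter a hypoxia core at -166. Those motifs were found in 19.3% (hypoxia core) and 2.58% (C/EBP) of all promoters. None of the 3 promoters held the GAS element (8.87% of all promoters) or TATAAA (14.2%). The GC content was 63.7% for Cd55, 58.3% for C3 and 50.3% for C1r, beside a median of 51.7% over all promoters. These matches describe the letters only, and no binding was measured.

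All values are log2 values after RMA, and the deposited values of every probe set have a median of 0 over the 4 arrays. A value therefore gives the position of an array relative to the others for that gene, and carries no level of expression. For the same reason the middle values of any single probe set are mirror images around 0, and genes cannot be ranked by abundance. Differences between arrays are kept, and a log2 difference of 1 is the 2-fold threshold of the study. In place of a replicate spread, the 45 bacterial control probe sets of the array, which do not measure rat genes, gave differences with an SD of 0.12 between the monolayers, 0.22 between the sheets, 0.18 between L6-WT formats and 0.16 between L6-HGF formats. Their median differences were 0.10, 0.05, 0.23 and 0.17 in the same order, an offset that the SD leaves out. Their largest difference in size was 0.51, and none passed 2-fold. This spread covers the array and not the culture.

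Cd55 was the member with the widest range. Its value was 1.15 in the L6-HGF monolayer, 0.27 in the L6-HGF sheet, -0.27 in the L6-WT monolayer and -0.72 in the L6-WT sheet. Both L6-HGF arrays thus lay above both L6-WT arrays, and within each line the monolayer lay above the sheet. Every step in this order was larger than the SDs of the bacterial controls. In monolayers Cd55 was upregulated by 1.42 on the log2 scale in L6-HGF as compared to L6-WT, which placed it at rank 8 from the top of all genes. In sheets the difference was 0.99, or 1.98-fold, just within the threshold and at rank 72 from the top. A size larger than that of Cd55 was found for 0.141% of genes in monolayers and for 1.48% in sheets. Cd55 is on the gene list that the study drew from these same arrays, so its direction in monolayers is not independent evidence.

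Cd55 was also lower in sheets than in monolayers in both lines. The difference was -0.44 in L6-WT and -0.88 in L6-HGF, or 1.36-fold and 1.84-fold, and neither passed 2-fold. That in L6-WT was smaller in size than the largest bacterial control difference in the same comparison (0.49). A larger size was found for 14.7% of genes in L6-WT and for 4.76% in L6-HGF. The effect of hHGF was smaller by 0.44 in sheets than in monolayers, and 14.4% of genes had a larger change of this kind.

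The 2 probe sets of Cd55 gave the same order of the 4 arrays but not the same sizes. The probe set whose name ends in _a_at, a suffix for probes that match several transcripts of a gene, read 0.92 in the L6-HGF monolayer, 0.26 in the L6-HGF sheet, -0.26 in the L6-WT monolayer and -0.83 in the L6-WT sheet. The other probe set read 1.38, 0.28, -0.28 and -0.60 in the same order. The first gave hHGF differences of 1.18 in monolayers and 1.10 in sheets, both past 2-fold, and the second 1.66 and 0.88. Likewise the second probe set alone put the L6-HGF sheet more than 2-fold below its monolayer (-1.10), where the first gave -0.65. The smaller effect of hHGF in sheets therefore rested on 1 probe set, with a change of -0.79, while the other gave -0.086.

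Cd59, the other GPI-anchored inhibitor among the members, ran opposite to Cd55 between the lines. It read 0.01 in the L6-HGF monolayer, 0.28 in the L6-WT monolayer, -0.39 in the L6-HGF sheet and -0.01 in the L6-WT sheet. L6-HGF lay below L6-WT in both formats, and the sheet lay below the monolayer in both lines. The hHGF differences were -0.26 in monolayers and -0.38 in sheets (1.20-fold and 1.30-fold), and the sheet differences were -0.29 in L6-WT and -0.40 in L6-HGF. All 4 were larger than the SD of the bacterial controls in the same comparison, and only the sheet difference in L6-HGF was larger than the largest control difference there (0.34). The L6-HGF monolayer and the L6-WT sheet, next to each other in the order, were not separated.

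Serping1, which inactivates C1r and C1s, varied by only 0.34 over the arrays. It read -0.01 in the L6-HGF monolayer, 0.17 in the L6-WT monolayer, -0.16 in the L6-HGF sheet and 0.01 in the L6-WT sheet. Its order of arrays had L6-WT above L6-HGF in each format, with hHGF differences of -0.19 in monolayers and -0.17 in sheets. The sheet differences were -0.16 in L6-WT and -0.15 in L6-HGF. These sizes were close to the median size of all genes, which was 0.13 between monolayers, 0.15 between sheets, 0.19 between L6-WT formats and 0.20 between L6-HGF formats.

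Cfi, the protease that degrades C3b and C4b, was higher in the sheet in both lines. It read -0.14 in the L6-HGF monolayer and -0.19 in the L6-WT monolayer, and 0.14 in both sheets. The sheet difference was 0.33 in L6-WT and 0.28 in L6-HGF, and both came to 0.15, within the SD of the bacterial controls, when the arrays were shifted to those controls. The hHGF difference was 0.06 in monolayers and -0.0011 in sheets, well within the SD of the bacterial controls.

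**Figure D1:**
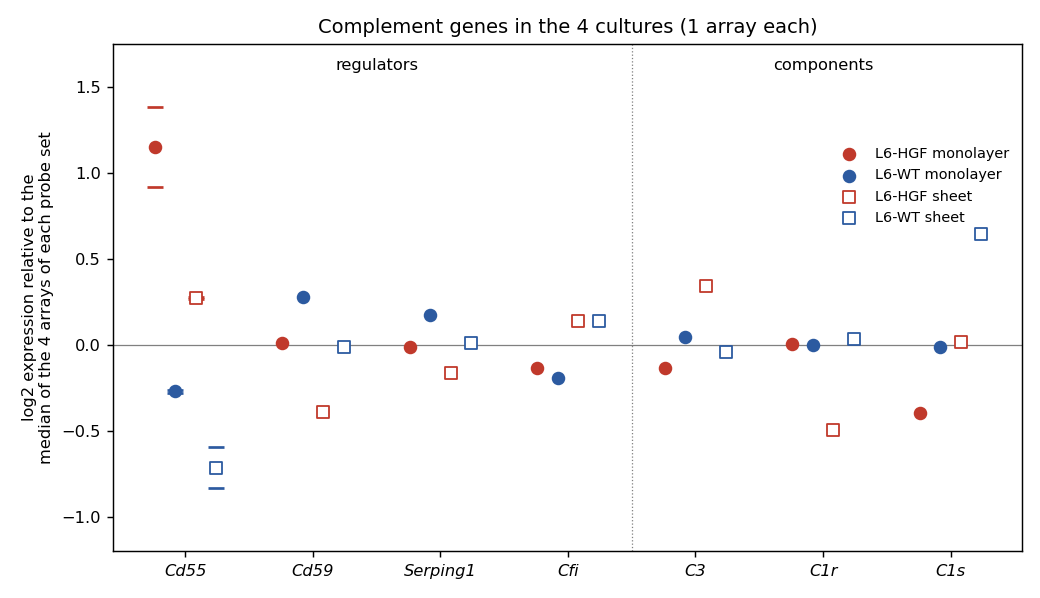
Deposited log2 values of the 7 measured genes on the 4 arrays, relative to the median of the 4 arrays for each probe set. Red is L6-HGF and blue L6-WT, filled circles are monolayers and open squares sheets, short bars are the 2 single probe sets of Cd55, and no error bars are drawn because each condition is 1 array. Cd55 spans 1.87 and C1s 1.04, while the other genes span 0.33 to 0.67.

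Among the components, C1s had the widest range. It read -0.40 in the L6-HGF monolayer, -0.01 in the L6-WT monolayer, 0.01 in the L6-HGF sheet and 0.64 in the L6-WT sheet. L6-HGF lay below L6-WT in both formats and the sheet lay above the monolayer in both lines, opposite to Cd55 in both respects. The hHGF difference was -0.38 in monolayers and -0.63 in sheets (1.30-fold and 1.55-fold). A larger size was found for 8.85% and 4.67% of genes, respectively. The sheet difference was 0.66 in L6-WT and 0.41 in L6-HGF (1.58-fold and 1.33-fold).

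C1r, the protease that activates C1s, is its direct neighbour in the rat gene table. It read 0.0028 in the L6-HGF monolayer, -0.0028 in the L6-WT monolayer, 0.03 in the L6-WT sheet and -0.49 in the L6-HGF sheet. Only the L6-HGF sheet stood apart, and the other 3 arrays differed by less than the SD of the bacterial controls. L6-HGF differed from L6-WT by 0.0056 in monolayers and by -0.53 in sheets, and the sheet differed from the monolayer by 0.04 in L6-WT and -0.50 in L6-HGF. In L6-HGF these neighbours thus differed in direction between formats, with C1s higher and C1r lower in the sheet, neither past 2-fold.

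C3, the central component of the cascade, differed in the other direction on the same array. It read -0.13 in the L6-HGF monolayer, 0.04 in the L6-WT monolayer, -0.04 in the L6-WT sheet and 0.34 in the L6-HGF sheet. L6-HGF differed from L6-WT by -0.18 in monolayers and by 0.38 in sheets, and the sheet from the monolayer by -0.09 in L6-WT and 0.47 in L6-HGF. The L6-HGF sheet stood above the other 3 arrays. Both hHGF differences were smaller in size than the largest control difference in the same comparison (0.35 and 0.51). The change of the hHGF difference between formats was 0.56 for C3 and -0.53 for C1r, and 8.10% and 9.28% of genes, respectively, had a larger one. The 4 arrays leave no replicate to test such a change.

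For Cfb and C4a the arrays could not separate the gene from its relative. In the annotation 4 probe sets were listed for both Cfb and C2, which are neighbours in the rat gene table, and their differences in the 4 comparisons all lay between -0.24 and 0.40. Their mean differences were -0.06 for hHGF in monolayers, 0.03 for hHGF in sheets, 0.19 for the sheet in L6-WT and 0.27 for the sheet in L6-HGF. The 1 probe set listed for both C4a and C4b gave -0.0048, 0.20, 0.01 and 0.22 in the same comparisons. None of these values passed 2-fold, and none can be credited to 1 gene of the pair.

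Counted over the 7 measured genes, 1 (Cd55) was upregulated by more than 2-fold in L6-HGF as compared to L6-WT monolayers, and none was downregulated. Of all genes, 0.225% were past 2-fold higher and 0.309% lower in that comparison. No member passed 2-fold between the sheets, where 0.492% of genes were higher and 0.95% lower in L6-HGF. No member passed it between the formats of L6-WT, where 0.717% of genes were higher and 0.492% lower in the sheet, or of L6-HGF, where 1.17% were higher and 2.57% lower. Cd55 passed between the sheets after quantile normalization (1.04) and on its _a_at probe set alone (1.10). Between the L6-HGF formats it passed on its second probe set alone (-1.10), after quantile normalization and with the arrays shifted to the bacterial controls. The median size over the 7 genes was 0.19 and 0.38 for hHGF in monolayers and sheets, and 0.29 and 0.41 for the format in L6-WT and L6-HGF.

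Regulators and components had no common direction of their own. Between the lines, Cd55 was higher in L6-HGF in both formats, Cd59 and Serping1 were lower in both, and Cfi lay near 0. Of the 3 components, C1s was lower in L6-HGF in both formats, while C3 and C1r lay on different sides of 0 in sheets. By format, 3 of the 4 regulators were lower in the sheet in both lines, the exception being Cfi. Both format differences of Serping1 were, however, within the SD of the bacterial controls. Of its hHGF differences only that in monolayers (-0.19) was larger than the SD (0.12). The monolayer value of C1r, 0.0056, and that of Cfi, 0.06, turned to -0.10 and -0.05 when the arrays were shifted to the bacterial controls, and have no direction.

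**Figure D2:**
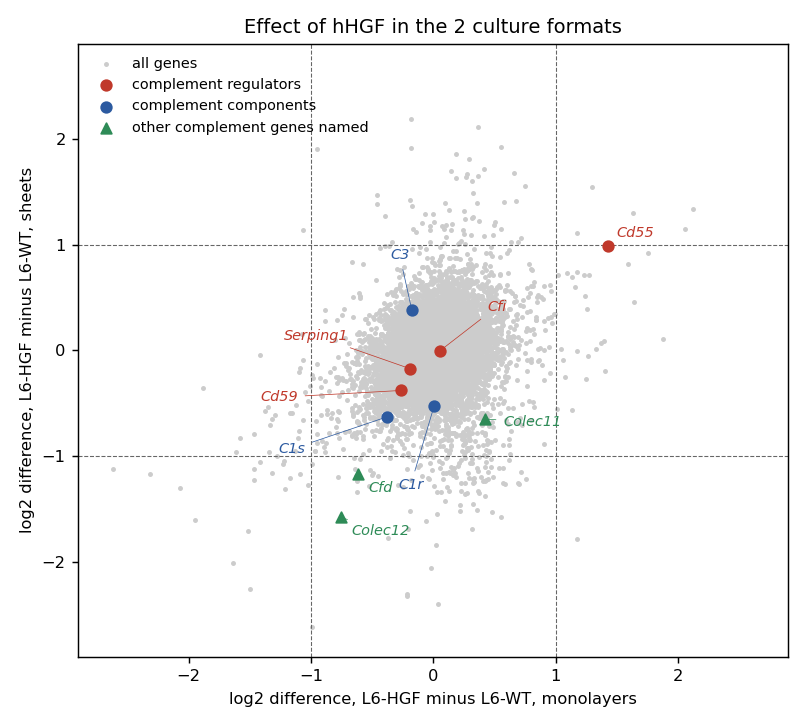
Log2 effect of hHGF (L6-HGF minus L6-WT) in monolayers (horizontal axis) against that in sheets (vertical axis), 1 point per gene, with dashed lines at 2-fold. Cd55 lies at 1.42 and 0.99, and all other members lie within 2-fold on both axes.

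A limma model with terms for line and format was the main test, and it had 1 residual degree of freedom. The effect of hHGF common to both formats was 1.21 ± 0.15 (SE, limma, adjusted p = 0.492) for Cd55 and -0.51 ± 0.12 (SE, limma, adjusted p = 0.532) for C1s. Before adjustment the limma p was 0.0011 for Cd55, 0.0115 for C1s and 0.0335 for Cd59. No member passed an adjusted p of 0.05 for hHGF, and neither did any of the 14217 genes (0%), of which 602 higher and 710 lower had an unadjusted p under 0.05. In the format term 2 genes (0.0141%) passed in limma and no member was among them. The sheet effect was -0.66 for Cd55 (limma, adjusted p = 0.132), 0.53 for C1s (limma, adjusted p = 0.131), -0.34 for Cd59 (limma, adjusted p = 0.164) and 0.31 for Cfi (limma, adjusted p = 0.180). Noise between arrays and real changes of an effect with format enter this residual together, so that for C3 and C1r, with opposed or unequal differences, the common effect of 0.10 and -0.26 describes neither format.

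**Figure D3:**
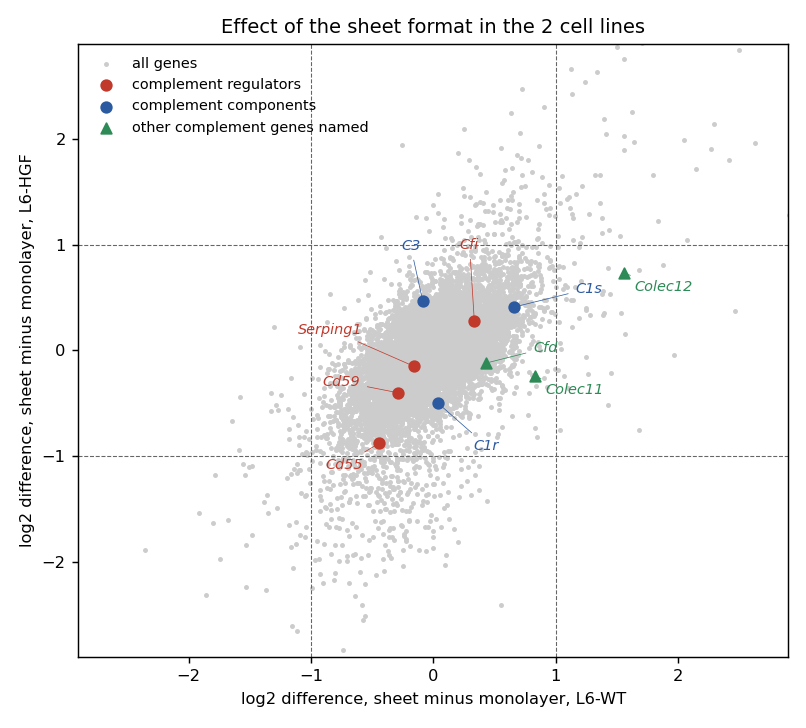
Log2 difference between sheet and monolayer in L6-WT (horizontal axis) against that in L6-HGF (vertical axis), 1 point per gene, with dashed lines at 2-fold and 15 genes outside the axes. Cd55 lies at -0.44 and -0.88 and C1s at 0.66 and 0.41, and C3 and C1r lie near 0 in L6-WT but at 0.47 and -0.50 in L6-HGF.

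The rest of the complement system was taken from lists of 23 other components, 12 other regulators and 11 receptors, of which 19, 8 and 9 were measured. In monolayers none of these 36 genes passed 2-fold between L6-HGF and L6-WT. In L6-HGF sheets 2 were downregulated by more than 2-fold and none was upregulated. By format, 1 was more than 2-fold higher in the L6-WT sheet and none in the L6-HGF sheet. The medians over the 36 genes were -0.05 and -0.04 for hHGF in monolayers and sheets and 0.09 and 0.10 for the sheet in L6-WT and L6-HGF, and in both format comparisons the medians of all 3 lists lay below 0, from -0.16 to -0.02, when the arrays were shifted to the bacterial controls. The medians of all genes were 0.0016, -0.02, 0.03 and 0.03 in the 4 comparisons. The same shift moved them to -0.16 between L6-WT formats and -0.10 between L6-HGF formats.

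Colec12, a membrane scavenger receptor of the collectin family, had the largest differences of the 36. It read -0.74 in the L6-HGF monolayer, 0.01 in the L6-WT monolayer, -0.01 in the L6-HGF sheet and 1.57 in the L6-WT sheet. The L6-WT sheet stood above the other 3 arrays, 2.94-fold above its own monolayer and 2.99-fold above the L6-HGF sheet. As for C1s, the L6-HGF monolayer was the lowest array and the L6-WT sheet the highest.

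Cfd, the protease factor D that cleaves factor B in the alternative pathway, read -0.31 in the L6-HGF monolayer, 0.31 in the L6-WT monolayer, -0.43 in the L6-HGF sheet and 0.74 in the L6-WT sheet. Both L6-HGF arrays lay below both L6-WT arrays. The hHGF difference was -0.62 in monolayers and -1.17 in sheets, the latter past 2-fold. The collectin Colec11, named after its values were seen, read 0.12, -0.30, -0.12 and 0.53 on the same arrays, so that L6-HGF was higher by 0.42 in monolayers and lower by 0.65 in sheets.

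The surface regulators closest in function to Cd55 did not share its pattern of 2-fold size. Cd46, a cofactor of Cfi, had hHGF differences of -0.09 in monolayers and 0.02 in sheets. Cr1l, known in rodents as Crry and able to hold back the C3 convertases, gave 0.39 and 0.08. Of the terminal and classical pathway genes, C5 gave -0.16 and -0.12, and C1qa, a chain of the C1q recognition molecule, gave -0.20 and 0.06. No probe set was listed for C2 or C4b alone, so that these genes were not measured here.

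Other gene groups that share a feature with the members were set beside them. Of 28 measured genes for other GPI-anchored surface proteins, 1 (Psca, 1.40) was upregulated past 2-fold in L6-HGF monolayers and 0 passed in sheets, and of 20 genes of GPI anchor synthesis none passed 2-fold in any of the 4 comparisons. Of 28 acute phase and NF-kB response genes, none passed 2-fold in monolayers, and 2 were lower in L6-HGF sheets, the chemokines Cxcl1 (-2.40) and Ccl2 (-1.69). Of 22 coagulation and fibrinolysis genes, the serpin Serpinf1 was lower in L6-HGF monolayers (-1.35) and the urokinase gene Plau in L6-HGF sheets (-1.02), which no longer passed after quantile normalization. Between formats, Psca (1.07), Cxcl1 (1.68) and Ccl2 (1.26) were higher in the L6-WT sheet, where Psca no longer passed 2-fold with the arrays shifted to the bacterial controls. The thrombin receptor gene F2r and Plau were lower in the sheet in both lines, at -1.28 and -1.09 in L6-WT and at -1.49 and -1.75 in L6-HGF, and Serpinf1 was higher in the L6-HGF sheet (1.20).

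Interferons are known inducers of several complement genes, Serping1 and C1s among them. Of 28 measured interferon response genes, 5 were higher in L6-HGF monolayers, up to 1.40 for Gbp4, and none was lower, with a list median of 0.24. Between the sheets none was higher and 1, Cxcl10, was lower (-1.79), with a median of -0.37. From monolayer to sheet 10 were lower in L6-HGF, led by Cxcl10 (-2.41), Isg15 (-2.04), Ddx58 (-1.94) and Irf7 (-1.68), with a median of -0.63, while in L6-WT 1 was higher (Gbp2, 1.10), and 0 with the arrays shifted to the bacterial controls. In those comparisons Serping1 gave -0.19, -0.17, -0.15 and -0.16, and C1s gave -0.38, -0.63, 0.41 and 0.66. C1r gave 0.0056, -0.53, -0.50 and 0.04, and C3 gave -0.18, 0.38, 0.47 and -0.09. Whether the interferon genes had a part in the values of the members was not tested.

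**Figure D4:**
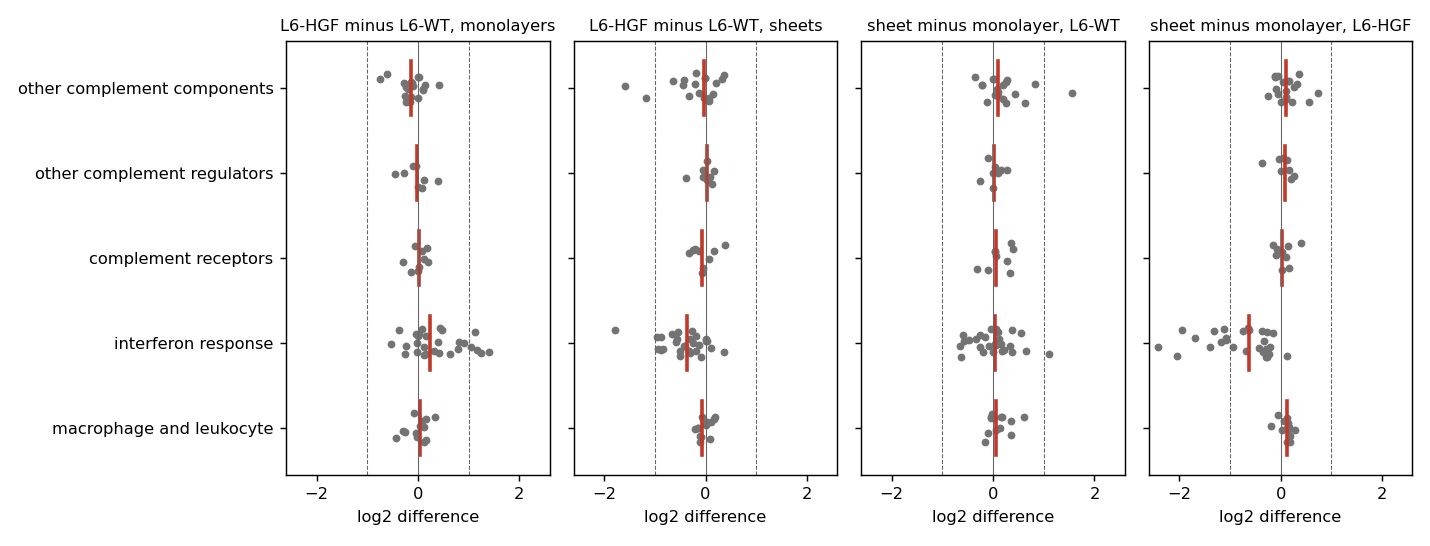
Log2 differences in the 4 comparisons for other complement components, regulators and receptors, interferon response genes and macrophage and leukocyte markers, 1 point per gene, with the list median as a red line and dashed lines at 2-fold. Among the complement lists only Colec12 and Cfd pass 2-fold, while the interferon response list has medians from -0.63 to 0.24.

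Markers of other cell types that make complement were followed as well. None of 13 macrophage and leukocyte markers, 7 hepatocyte markers or 5 endothelial markers passed 2-fold in any comparison, and their level could not be checked because the deposited values hold none. For hHGF, 7 of the 13 macrophage and leukocyte markers lay above 0 in monolayers (median 0.04) and 6 in sheets (median -0.08). The labelled myoblast identity could for the same reason be checked only by change. Of 10 myoblast and muscle markers, 4 were downregulated past 2-fold in L6-HGF monolayers (Myh3, Acta1, Tnnc2 and Mymk) and 2 in L6-HGF sheets (Acta1 and Mymk). Myod1 gave -0.12 and 0.05, and Des gave 0.43 and 0.76. In each format 8 of the 10 lay below 0 for hHGF. Of 12 fibroblast markers, 3 were lower past 2-fold in L6-HGF in each format, and 4 were higher past 2-fold in the sheet in each line. By format, 5 of the 12 lay below 0 in L6-WT (median 0.14) and 7 in L6-HGF (median -0.10). Over that list 9 of 12 markers lay below 0 for hHGF in monolayers, with a median of -0.22, and all 12 did in sheets, with a median of -0.60. In monolayers and sheets C1s gave -0.38 and -0.63, C1r 0.0056 and -0.53, C3 -0.18 and 0.38, and Colec12 -0.75 and -1.58. By format, in L6-WT and L6-HGF, C1s gave 0.66 and 0.41, C1r 0.04 and -0.50, C3 -0.09 and 0.47, and Colec12 1.56 and 0.73. C1s, C1r, C3 and Colec12 are also made by fibroblasts, and the part of these markers in their values was not tested.

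The genes with the pattern most like that of Cd55, by Euclidean distance over the 4 array values, were the keratin gene Krt19 (0.449) and the sterol synthesis genes Fdps (0.451) and Acat2 (0.478), beside a median distance of 1.46 over all genes. Krt19 had hHGF differences of 1.63 and 1.30, Fdps 0.96 and 0.56, and Acat2 0.95 and 0.62, in monolayers and sheets. For C1s the closest were Rab3b (0.0551), Svbp (0.0687) and LOC102550394 (0.0851), beside a median of 0.778. With 4 values per gene such likeness is a description only.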

How the data were processed

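Total RNA of 4 cultures was hybridised by the authors to an Affymetrix whole-genome rat array, 1 per condition. The deposited values are log2 expression values, made by the authors with RMA (version not given in the sources used here) and centred on the median of each probe set. Signal levels are lost by this centring, which left no way to filter dim probe sets. Of 31099 probe sets, 57 controls were left out, and 20826 of the remaining 31042 had 1 gene symbol in the platform annotation, 436 had several and 9780 were not listed. Symbols were checked against the RefSeq rat gene table.

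Differences of log2 values were taken between lines within each format and between formats within each line, and read against 2-fold, the threshold of the study, and against all 14217 genes. Within a comparison no test was possible. The model over all arrays was limma (3.58.1, in R 4.3.3) with Benjamini-Hochberg adjustment over all genes, and was tested on simulated data. Python 3.11.15 with pandas 2.3.3 was used for the rest. Named genes were all members, other complement genes past 2-fold or from a short fixed list, up to 4 genes past 2-fold of other lists and the 3 genes nearest to Cd55 and to the component of widest range, apart from the marker genes Myod1 and Des and the genes said to be named later. The members and lists were chosen with earlier results of these data known. Alternatives were the median over probe sets, leaving out probe sets ending in _x_at, _s_at or _a_at, quantile normalization of the centred values, shifts of each array to the bacterial control or overall median, a 1.5-fold threshold, single probe sets of Cd55 and limma with the tested term alone or on probe sets.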

Additional observations from a re-analysis of the deposited data

Results flagged for a closer look

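Only the members and the other complement genes named above were searched for effects of opposite sign. There the effect of hHGF had opposite signs in the formats for C3 and Colec11, each value being larger in size than the SD of the bacterial controls. The receptor gene C5ar1, named after its values were seen, lay outside that search. It also met the rule, with 0.17 in monolayers and -0.32 in sheets. C3 was lower in L6-HGF monolayers (-0.18) and higher in L6-HGF sheets (0.38). Both C3 values were smaller in size than the largest control difference in the same comparison (0.35 and 0.51). Colec11 was higher in L6-HGF monolayers (0.42) and lower in L6-HGF sheets (-0.65). By format, Colec11 was higher in the sheet than in the monolayer of L6-WT (0.83) and lower in that of L6-HGF (-0.25). The latter was smaller in size than the largest control difference there (0.34). With 1 array per condition none of these differences was tested.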

How the results depend on the processing

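The precision is limited by 4 arrays, and leaving out a replicate was not possible with 1 array per condition. No paired analysis was possible because the labels give no replicate numbers. The only member difference past 2-fold, that of Cd55 between monolayers, kept its sign under every alternative run. Of 185 member differences 167 moved by less than the SD of the bacterial controls, but many of them could not move. The median over probe sets left all 35 of its values unchanged, and leaving out suffixes could change Cd55 alone. The shift to the overall median moved values by only -0.02 to 0.01. The count of 167 is therefore no measure of stability. The sign changes seen were those of values near 0, for Cfi and C1r.

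Cd55 depended on the probe set. The monolayer difference for hHGF was 1.66 without probe sets ending in _a_at, 1.65 after quantile normalization, and 1.18 and 1.66 on the single probe sets, which were chosen as an alternative after seeing the data. The sheet difference in L6-HGF was -1.10 without _a_at, -1.07 after quantile normalization, and -0.65 and -1.10 on single probe sets. The change of the hHGF effect between formats was -0.79 without _a_at, and -0.086 and -0.79 on single probe sets. Shifting the arrays to the bacterial controls, which moved the median of all genes from 0.03 to -0.16 between L6-WT formats, gave there -0.63 for Cd55, -0.47 for Cd59, -0.34 for Serping1, 0.15 for Cfi, -0.27 for C3, -0.15 for C1r and 0.47 for C1s.

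The number of members past the threshold went from 0 to 1 for lower in the L6-HGF sheet than in its monolayer (without _a_at, after quantile normalization, after the bacterial shift and at 1.5-fold, each for Cd55), and for higher in L6-HGF sheets than in L6-WT sheets (after quantile normalization and at 1.5-fold, for Cd55). At 1.5-fold it was also 1 for C1s, lower in L6-HGF sheets and higher in the L6-WT sheet than in its monolayer. The share of all genes past 1.5-fold was not taken. Counts at 1.5-fold, here and for the lists below, therefore cannot be set against all genes. Adding the probe sets listed for 2 genes or leaving out Cd59, both chosen after seeing the data, changed no count. Neither could do so, because all differences of these probe sets and of Cd59 lie within 2-fold. In limma no member passed the threshold under any alternative, which in so small a design says nothing of stability. The genes called over the whole array for format went from 2 to 0 with the tested term alone and on probe sets, and were 0 for hHGF throughout.

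Between L6-WT formats the bacterial shift turned list medians to -0.084 for other components, -0.16 for other regulators, -0.12 for receptors, -0.066 for GPI-anchored proteins, -0.12 for GPI anchor synthesis, -0.14 for interferon, -0.033 for acute phase and -0.10 for coagulation genes, and left 0 GPI-anchored and 0 interferon genes past 2-fold higher. The median of all genes there moved to -0.16. After the same shift 2 interferon genes were lower in L6-HGF sheets. After quantile normalization 4 acute phase genes were higher in the L6-WT sheet and 1 in the L6-HGF sheet, and 0 coagulation genes were lower in L6-HGF sheets. At 1.5-fold, counts that differed by more than 1.5 times became, between lines in monolayers, 2 lower for other components, 9 higher for interferon, 1 lower for acute phase and 1 higher for coagulation. In sheets they became 8 lower for interferon, 4 lower for acute phase, and 1 higher and 2 lower for coagulation. Between L6-WT formats they became 3 higher for other components, 2 higher and 2 lower for GPI-anchored proteins, 1 higher for GPI anchor synthesis, 2 higher and 3 lower for interferon, 5 higher for acute phase and 1 higher for coagulation. Between L6-HGF formats they became 1 higher for other components, 1 higher for GPI-anchored proteins, 4 higher for GPI anchor synthesis, and 2 higher and 1 lower for acute phase. Smaller gains at 1.5-fold were from 10 to 15 interferon genes lower in the L6-HGF sheet and from 2 to 3 other components lower in L6-HGF sheets.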
